A study of Mus musculus with 6 samples.

Results

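Lipolysis, the release of fatty acids from stored triglyceride, was followed through 8 genes: Pnpla2, Lipe, Mgll, Abhd5, G0s2, Pnpla3, Abhd6 and Ces1d. They were chosen by name as the intracellular lipases of fat cells and the proteins that regulate them, with earlier results of these data known. Every probe set carrying any of these symbols was taken. These were 18 of the 45101 probe sets on the array, for 8 of the 18194 genes with a symbol of their own. Cells of the mouse inguinal fat depot, a white depot under the skin, had been differentiated into fat cells in culture. There were 3 control samples, without the drug, and 3 samples given 1 uM rosiglitazone for 4 days, each hybridised to 1 Affymetrix array of mouse probe sets. Rosiglitazone is a thiazolidinedione that activates the nuclear receptor PPARγ, and the state of the cells is labelled beiging in the treated samples and non-activated in the controls. The treatment protocol text of the labels names the drug for all 6 samples, so the groups were taken from the sample titles. No mouse strain, genotype or age is given in the sources used here, and whether the 3 samples of a group were grown as separate cultures is not stated. The p-values therefore cover the spread among these 6 samples alone, part or all of which may be technical.

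Triglyceride is taken apart one fatty acid at a time. Adipose triglyceride lipase, encoded by Pnpla2, removes the first, hormone-sensitive lipase (Lipe) cuts the diglyceride that remains, and monoglyceride lipase (Mgll) frees the last fatty acid and glycerol. The product of Abhd5, also known as CGI-58, activates adipose triglyceride lipase, and the small protein encoded by G0s2 inhibits it. In resting fat cells Abhd5 is held on the droplet by perilipin, and phosphorylation by protein kinase A during adrenergic stimulation releases it. In brown and beige fat the fatty acids set free both fuel mitochondria and activate the uncoupling protein.

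The promoters of Pnpla2, its activator Abhd5, its inhibitor G0s2, and Pnpla3, the member with the largest fall, are shown because the first 3 act at one step of the pathway and the last moved farthest downward. Each sequence runs from 250 bases before to 50 bases after the start of the gene on its own strand, from RefSeq on GRCm38.p6. Capitals mark matches, on either strand, to any of 5 motifs: the direct repeat bound by PPAR with its partner RXR (2 copies of AGGTCA in one direction, 1 base apart), its core AGGTCA alone, the cAMP response element TGACGTCA, the E-box CACGTG and the GC box GGGCGG.
Pnpla2, chr7:141454938-141455237, plus strand: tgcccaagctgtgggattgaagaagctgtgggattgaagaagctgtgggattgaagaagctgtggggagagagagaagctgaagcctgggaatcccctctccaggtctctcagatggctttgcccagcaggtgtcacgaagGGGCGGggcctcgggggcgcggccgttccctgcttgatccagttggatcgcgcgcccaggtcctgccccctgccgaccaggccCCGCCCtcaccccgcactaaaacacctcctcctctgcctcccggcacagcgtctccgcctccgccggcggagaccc
Abhd5, chr9:122351366-122351665, plus strand: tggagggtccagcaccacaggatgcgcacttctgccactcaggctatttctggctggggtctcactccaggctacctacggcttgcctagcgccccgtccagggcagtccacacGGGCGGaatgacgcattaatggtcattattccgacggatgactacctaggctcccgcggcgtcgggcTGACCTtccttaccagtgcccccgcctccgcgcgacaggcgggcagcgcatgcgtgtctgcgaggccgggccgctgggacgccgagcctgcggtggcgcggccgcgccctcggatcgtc
G0s2, chr1:193273139-193273438, minus strand: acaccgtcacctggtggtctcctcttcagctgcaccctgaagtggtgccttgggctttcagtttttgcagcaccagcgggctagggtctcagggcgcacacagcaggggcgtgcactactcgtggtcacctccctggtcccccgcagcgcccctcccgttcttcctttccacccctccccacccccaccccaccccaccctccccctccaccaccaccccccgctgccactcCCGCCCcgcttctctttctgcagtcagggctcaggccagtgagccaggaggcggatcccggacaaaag
Pnpla3, chr15:84167566-84167865, plus strand: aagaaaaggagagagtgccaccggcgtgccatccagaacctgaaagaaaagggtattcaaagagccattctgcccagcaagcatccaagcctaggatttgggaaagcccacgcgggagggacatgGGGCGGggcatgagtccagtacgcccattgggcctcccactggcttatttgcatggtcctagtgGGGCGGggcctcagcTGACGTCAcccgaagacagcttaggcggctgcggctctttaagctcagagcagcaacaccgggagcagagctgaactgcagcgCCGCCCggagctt
Of the 8 members, 7 matched the promoter table, with 10 windows among them; Ces1d was the remaining one. The full direct repeat was in 0 of the 10 windows and in 0.04% of all 32851 promoter windows. The core alone lay in the Abhd5 window, 69 to 64 bases before the start on the opposite strand, and in 16.26% of all windows. A cAMP response element lay in the Pnpla3 window, 46 to 39 bases before the start, and in 1.79% of all windows. The E-box was in 1 window each of Lipe and Mgll and in 7.15% of all windows. The GC box was in 9 of the 10 windows and in 35.66% of all. The windows are not independent, since the 2 Abhd6 windows overlap and hold the same GC box. By gene, it was in all 7 members with a window, and the share by gene over all genes was not counted. These matches describe the letters in a short window and were not tested against the expression changes.

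The 6 arrays had median intensities of 44.65 to 46.81, and the highest value on an array lay between 16947 and 17925. Values are the authors' deposited intensities on a linear scale, and their number of arrays limits their precision. Intensities under 16 were set to 16 before log2 was taken. All probe sets but the 40% with the lowest mean were tested by limma, with Benjamini-Hochberg adjustment over the 27023 probe sets tested and a threshold of 0.05, and a gene or probe set past it is called here. Of these probe sets 51.9% were called, 21.2% higher and 30.7% lower with rosiglitazone. The direction depended on how the arrays were scaled, since 40.8% of calls were higher as deposited, 52.4% after quantile normalization and 60.5% after median centring, which moved the median change of all probe sets by 0.12 on the log2 scale. The changes below are on the deposited scale.

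Of the 8 genes, read at the brightest probe set of each, 5 rose with rosiglitazone, 2 fell and 1 did not pass the test. Ces1d, Abhd6, Mgll, G0s2 and Abhd5 rose, Pnpla3 and Lipe fell, and Pnpla2 depended on the probe set. Among all 12952 genes read in this way 23.0% rose and 35.3% fell. The median log2 change of the 8 was 0.21, against −0.05 over all genes. By probe set, 16 of the 18 passed the filter on low values, and of these 13 were called higher, 2 lower and 1 was not called, with a median of 0.41 against −0.04 over all probe sets tested. The groups did not overlap in 15 of the 16, and in 58.3% of all probe sets. Probe sets of 1 gene read the same gene and are not independent of each other. In extracts of whole cultures, fewer cells of a type and less RNA per cell cannot be told apart.

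**Figure D1:**
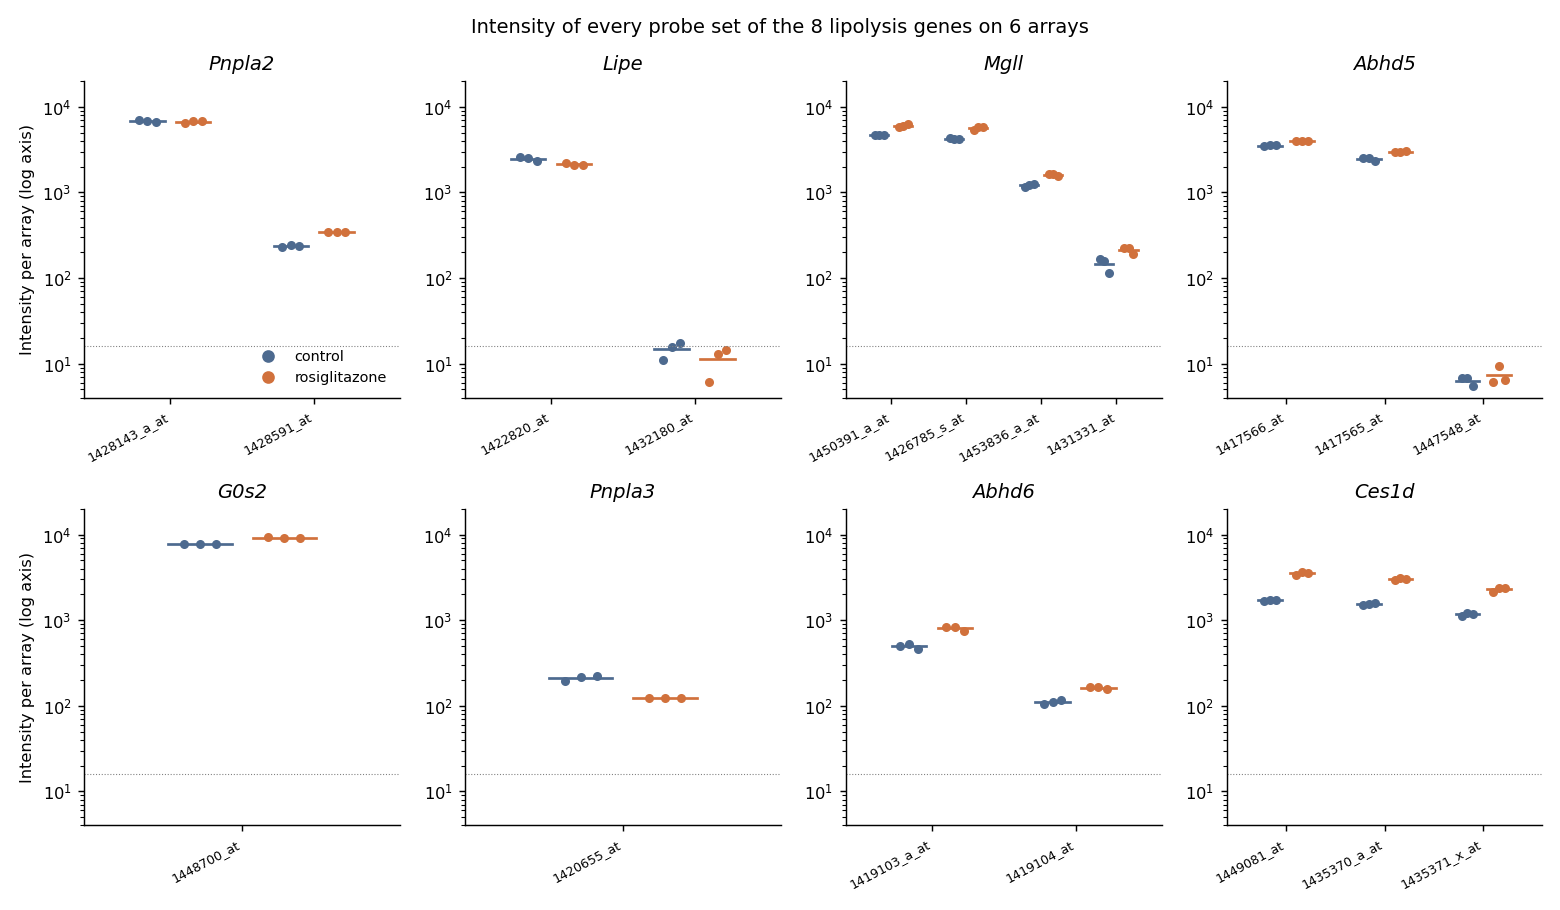
Intensity on each array (log axis) of all 18 probe sets of the 8 genes, with 3 control arrays in blue and 3 rosiglitazone arrays in orange; points are arrays, short lines are group means, and the dotted line is the floor of 16. The groups lie apart in 15 of the 16 tested probe sets, and the dimmest probe set of Abhd5 lies under the floor on all arrays and that of Lipe around it, at 6.19 to 17.3.

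Pnpla2, the enzyme of the first cut, gave different answers at its 2 probe sets. The brighter one, 1428143_a_at, read 6977, 6774 and 6578 on the control arrays and 6557, 6776 and 6849 on the rosiglitazone arrays. The groups overlapped, and the log2 change was −0.01 (95% interval −0.07 to 0.05, limma adjusted p = 0.791). The dimmer one, 1428591_at, read 233, 245 and 239 in control cells and 348, 347 and 342 with rosiglitazone. All 3 treated arrays lay above all control arrays, and the probe set rose by 0.53 (95% interval 0.41 to 0.66, adjusted p = 1.39e-06), a 1.44-fold change. Over 10214 pairs of a brightest and another tested probe set of one gene, the median absolute difference between the 2 log2 changes was 0.15. In either direction, they differed by at least the 0.54 seen in Pnpla2 in 10.36%. Where the brightest probe set had a mean intensity above 5000, that share was 5.58% of 627 pairs. Of the 16 tested probe sets the brighter Pnpla2 set was the one whose direction depended on the scaling: its log2 change was −0.11 and called after quantile normalization (adjusted p = 0.00139) and 0.11 and called after median centring (adjusted p = 0.0104). The mean of both probe sets rose by 0.26 (adjusted p = 1e-05). The suffix _a_at marks a probe set that matches several transcripts of 1 gene, and which Pnpla2 transcripts each of the 2 sets reads was not tested.

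The activator and the inhibitor of that enzyme both rose by small amounts. Abhd5 read 3484, 3542 and 3548 in control cells and 3964, 3951 and 3982 with rosiglitazone at 1417566_at. Every treated array was above every control array, the spread within a group was at most 35.4 (SD), and the log2 change was 0.17 (95% interval 0.11 to 0.23, limma adjusted p = 6.62e-05), or 0.29 after median centring. A larger upward change was seen in 25.8% of genes. At 1417565_at it read 2534, 2507 and 2320 against 2967, 2980 and 3059, a rise of 0.29 (95% interval 0.21 to 0.37, adjusted p = 5.17e-06). The third Abhd5 probe set, 1447548_at, lay between 5.44 and 9.30 on all 6 arrays and was too dim to test.

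G0s2, which has 1 probe set, 1448700_at, read 7739, 7777 and 7784 in control cells and 9291, 9135 and 9164 with rosiglitazone. The control arrays agreed to within an SD of 24.1, and all treated arrays lay above them. Its log2 change was 0.24 (95% interval 0.20 to 0.29, adjusted p = 2.02e-07), a 1.18-fold rise, and 19.52% of genes had a larger upward change. The change was 0.37 after median centring and 0.17 after quantile normalization, called both times. Hilpda, which encodes another inhibitor of adipose triglyceride lipase, had a log2 change of −0.07 (adjusted p = 0.447).

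Lipe, the hormone-sensitive lipase gene, fell. At 1422820_at it read 2584, 2551 and 2328 in control cells and 2180, 2112 and 2079 with rosiglitazone. The lowest control array lay above the highest treated one, and the probe set fell by 0.23 on the log2 scale (95% interval −0.31 to −0.14, limma adjusted p = 0.000189), to 0.854 of the control level. A larger downward change was seen in 31.68% of genes. After median centring the change was −0.10 and still called (adjusted p = 0.0403). Its second probe set, 1432180_at, read 11.1, 15.6 and 17.3 in control cells and 6.19, 13.1 and 14.6 with rosiglitazone, too dim to test.

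Mgll, the monoglyceride lipase gene, rose at all 4 of its probe sets. The brightest, 1450391_a_at, read 4711, 4696 and 4698 in control cells and 5779, 6045 and 6228 with rosiglitazone, a log2 change of 0.36 (95% interval 0.29 to 0.42, limma adjusted p = 5.48e-08). A larger upward change was seen in 12.6% of genes. The control arrays were nearly equal, with an SD of 8.07, while the treated arrays spread over an SD of 225.7 and all lay higher. The next 2, 1426785_s_at and 1453836_a_at, each rose by 0.41 (adjusted p = 4.43e-08 and 3.13e-07). The suffix _s_at marks a probe set whose probes can match transcripts of more than 1 gene. The dimmest, 1431331_at, read 167, 157 and 115 in control cells and 223, 224 and 191 with rosiglitazone, with control array 3 the lowest. It rose by 0.56 with the widest interval of the Mgll probe sets (0.30 to 0.81, adjusted p = 0.00102).

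Abhd6, whose product also cuts monoglycerides and lysophospholipids, rose at both probe sets. At 1419103_a_at it read 498, 527 and 462 in control cells and 837, 826 and 754 with rosiglitazone. The groups lay well apart, the log2 change was 0.70 (95% interval 0.58 to 0.82, adjusted p = 4.45e-08), a 1.63-fold rise, and 3.47% of genes had a larger upward change. At 1419104_at it read 105, 110 and 117 against 166, 166 and 156, a rise of 0.56 (95% interval 0.38 to 0.74, adjusted p = 4.56e-05).

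Ces1d, a carboxylesterase gene also known as Ces3 or triacylglycerol hydrolase, had the largest rise of the 8. At 1449081_at it read 1665, 1740 and 1701 in control cells and 3400, 3618 and 3583 with rosiglitazone. Its mean went from 1702 ± 37.6 to 3534 ± 117 (SD, n = 3 each), a 2.08-fold rise with a log2 change of 1.05 (95% interval 0.98 to 1.13, adjusted p = 1.05e-12), and 1.33% of genes had a larger upward change. At 1435370_a_at it read 1484, 1538 and 1592 against 2930, 3069 and 3051, a rise of 0.97. At 1435371_x_at it read 1124, 1211 and 1194 against 2109, 2376 and 2396, a rise of 0.96. All 3 probe sets therefore gave a change between 1.95-fold and 2.08-fold. The suffix _x_at marks probes that can also match other sequences, and the carboxylesterase genes are a family of close copies. Of 12 other carboxylesterase genes named on the array 4 were bright enough to test, and 5 were under 16 on all 6 arrays. Of the 4 tested, 1 rose, Ces1f (0.52, adjusted p = 6.92e-07, from 449 to 643). The probe set of Ces1f has the suffix _s_at, so its probes can match transcripts of more than 1 gene. Whether it also reads Ces1d was not tested.

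Pnpla3, of the same enzyme family as Pnpla2 and a gene known for its induction by feeding, had the largest fall. At its single probe set, 1420655_at, it read 195, 216 and 220 in control cells and 124, 122 and 125 with rosiglitazone. The treated arrays were nearly equal, with an SD of 1.30, and all lay below the lowest control array. The probe set fell by 0.77 on the log2 scale (95% interval −0.93 to −0.60, adjusted p = 6.75e-07), to 0.588 of the control level, and 8.01% of genes had a larger downward change.

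**Figure D2:**
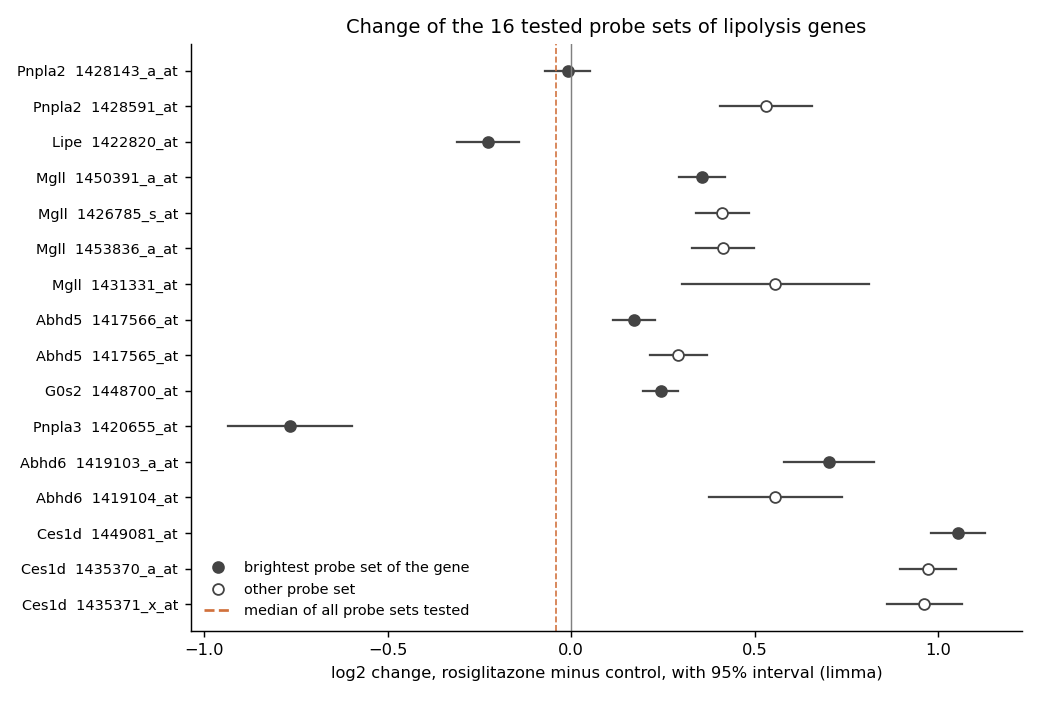
Log2 change with rosiglitazone (points) and its 95% interval from limma (lines) for the 16 tested probe sets; filled points are the brightest probe set of a gene, and the dashed line is the median of all probe sets tested, −0.04. Changes run from −0.77 in Pnpla3 to 1.05 in Ces1d, and the 2 Pnpla2 probe sets do not have overlapping intervals.

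Because the scaling of the arrays moved small changes, each gene was also set against Pnpla2 (1428143_a_at) within each array. Multiplying a whole array by a constant does not alter this difference for values above the floor. Quantile normalization can alter it, and the differences were not computed after that step. After it the log2 changes of Lipe and Pnpla2 were −0.17 and −0.11, against −0.23 and −0.01 as deposited. Lipe and Pnpla3 then lay nearer to Pnpla2, and the genes that rose lay farther from it. Relative to this Pnpla2 probe set, as deposited, Ces1d shifted upward with rosiglitazone by 1.06 on the log2 scale. Abhd6 shifted by 0.71, Mgll by 0.37, G0s2 by 0.25 and Abhd5 by 0.18. Lipe shifted by −0.22 and Pnpla3 by −0.76. For each of the 7 genes the 3 treated arrays lay on one side of the 3 control arrays, and each exact permutation p, two-sided, was 0.1, as it was after adjustment over the 7, the smallest that 3 arrays against 3 can give. The inhibitor G0s2 and the activator Abhd5 thus shifted the same way. With the mean of a gene's probe sets in place of the brightest, the shifts of G0s2 and Abhd5 turned to −0.02 (exact p = 0.5) and −0.03 (exact p = 0.1), since the second Pnpla2 probe set then counts, while the other 5 kept their direction.

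Among the genes with several probe sets, the spread of the changes was narrow in Ces1d and wide in Pnpla2. The dimmer set changed more than the brightest in Pnpla2, Mgll and Abhd5, and less in Abhd6 and Ces1d. Over the 8 such pairs within a gene, the exact permutation p of the difference lay between 0.1 and 0.5 before adjustment and between 0.133 and 0.5 after.

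**Figure D3:**
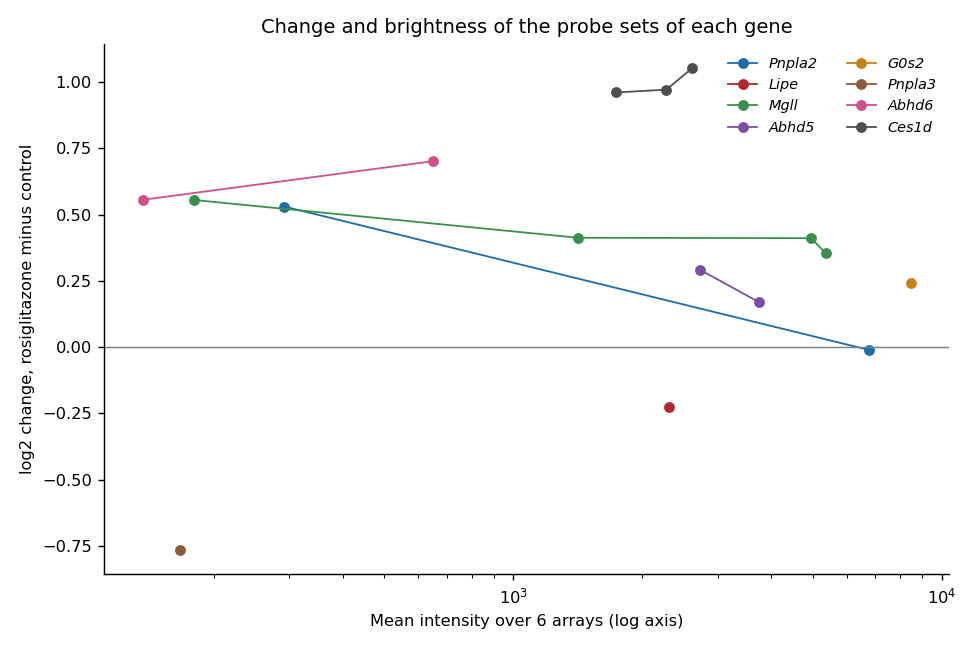
Log2 change with rosiglitazone against the mean intensity over the 6 arrays (log axis) for the 16 tested probe sets, with lines joining the probe sets of 1 gene. The line of Pnpla2 runs from 0.53 at its dim probe set to −0.01 at its bright one, while the 3 probe sets of Ces1d stay between 0.96 and 1.05.

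As the genes whose profile over the 6 arrays lay closest to a member, by the root mean square difference of log2 values centred on each gene's mean, Ces1d had Tfrc, the transferrin receptor gene (0.02), Tuba4a (0.03) and Cox7a1, a cytochrome oxidase subunit gene (0.03), among 12224 genes compared. Their log2 changes were 1.06, 1.03 and 1.06. Pnpla3 had Lgalsl, Twf2 and Abcd2, a peroxisomal transporter gene (each 0.03), whose changes were −0.76, −0.80 and −0.72. With 2 groups of 3 arrays this likeness mostly restates the size of the change.

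The genes around the pathway were taken from 9 lists of 128 genes, of which 96 were tested at their brightest probe set. Of these, 35 rose and 31 fell (36.5% and 32.3%), with a median log2 change of −0.01. Over all genes 23.0% rose and 35.3% fell, with a median of −0.05, and the count of each list stands beside these shares. In the family of Pnpla2 and Pnpla3, Pnpla8, a phospholipase gene, rose by 0.33, while Pnpla6 and Pnpla7 did not pass the test at −0.16 and −0.08. In the family of Abhd5 and Abhd6, 4 of 18 members rose, near the share over all genes, and 3 fell. Abhd15, whose product restrains lipolysis through the phosphodiesterase of insulin action, rose by 0.51 and Abhd10 by 0.44, while Abhd14b fell by 0.53 and Abhd2 fell by 0.38. After median centring 10 members of this list were called higher, and 8 after quantile normalization. Among other lipases and lipid hydrolases 4 of 9 rose and 2 fell. Lipg, the endothelial lipase gene, rose by 1.81 from 48.2 to 169, the lysosomal lipase gene Lipa by 0.86 and Ddhd2 by 0.64. The falls were in Ddhd1 (−0.38) and Daglb (−0.36). Lpl, the gene of the lipase that releases fatty acid from circulating triglyceride, had a log2 change of −0.02 (limma adjusted p = 0.453).

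Droplet proteins that restrain or admit lipases were mostly higher or not called, with 7 of 13 rising, 1 falling and a median of 0.16. Over all genes the shares were 23.0% rising and 35.3% falling. Plin5, which binds both Pnpla2 and Abhd5 on droplets of oxidative tissues, rose from 725 to 3126 (2.11), after Cidea (6.46) the largest rise of the list. Fitm2, a gene of droplet formation, rose by 0.61 and Hsd17b11 by 0.45. The fall was in Plin4 (−0.17), and no member was called lower after median centring. In cAMP and protein kinase A signalling 7 of 17 rose and 7 fell (4 after median centring). Akap1, whose product anchors the kinase at mitochondria, rose by 1.20, whereas the cGMP-dependent kinase gene Prkg1 fell by 1.02, the phosphodiesterase gene Pde4b fell by 1.01 and the inhibitory G protein gene Gnai2 fell by 0.55.

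Genes of transcription factors that act on lipase genes mostly fell: 12 of 14 fell and 1 rose, against 35.3% and 23.0% of all genes. Their median was −0.24, and after median centring 8 were called lower. Egr1, a repressor of Pnpla2, fell by 1.86 from 1416 to 391, Irf4, which promotes transcription of Pnpla2 and Lipe, fell by 1.39, and the PPAR partner gene Rxra fell by 0.80. The rise was in Ppara (1.83, from 681 to 2419). These falls thus covered both activators and repressors. In insulin signalling, which restrains lipolysis, 5 of 9 genes rose and 3 fell. Irs2 rose by 0.68, while Pik3r1 fell by 0.59, Irs1 fell by 0.34 and Akt1 fell by 0.32. Among genes for the fate of the released fatty acids and glycerol 6 of 10 rose and 3 fell. Pck1, which supplies glycerol backbones, rose by 3.53, Aqp7, the channel through which glycerol leaves, by 1.30 and the carnitine transferase gene Cpt1a by 0.42, while Dgat2, of the last step of triglyceride synthesis, fell by 0.60.

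**Figure D4:**
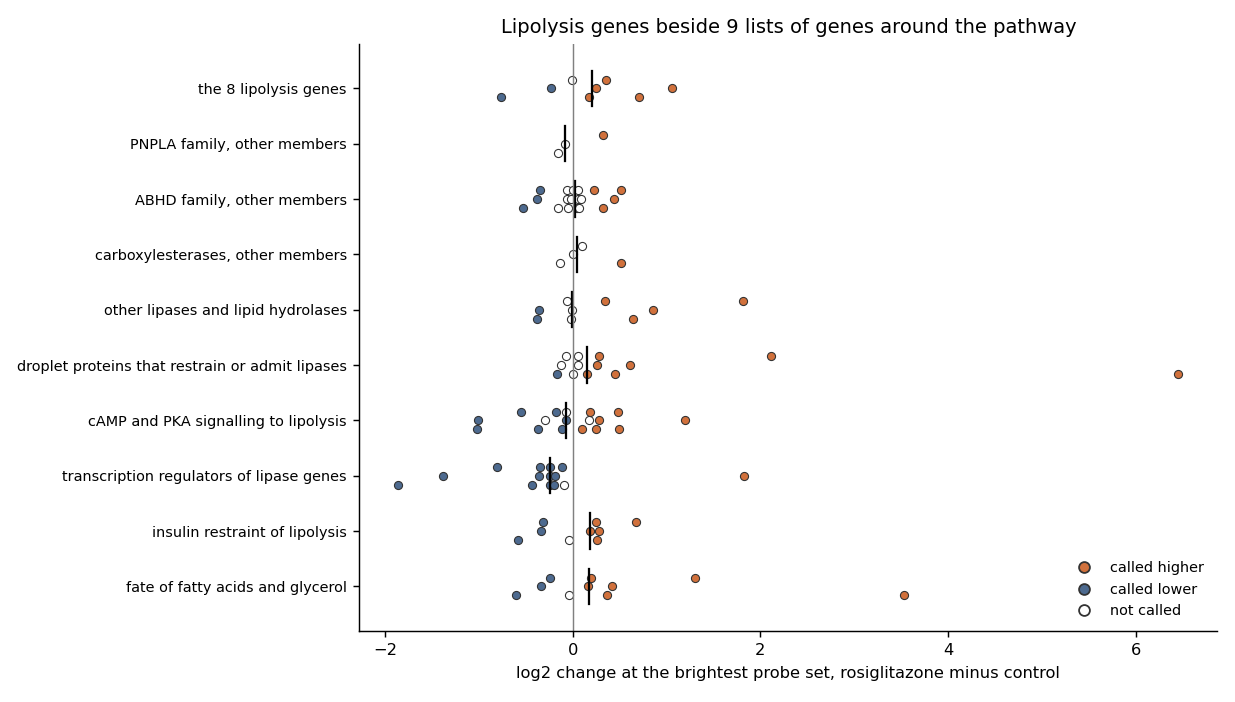
Log2 change with rosiglitazone at the brightest probe set of each tested gene, for the 8 lipolysis genes (top) and 9 lists around the pathway; orange points were called higher, blue lower, white not called, and black bars are medians. The 8 genes have a median of 0.21, the transcription regulators −0.24 with 12 of 14 lower, and Cidea lies farthest to the right at 6.46. Over all genes the median was −0.05, and 35.3% were called lower.

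The cultures carried fat cell markers, with Adipoq near 12829 in control cells and 13158 with rosiglitazone, and of 9 such markers 1 rose and 5 fell, with a median log2 change of −0.25. The falls were in Lep, the leptin gene (−5.02, from 665 to 19.1), Retn (−0.87), Pparg (−0.36), Slc2a4 (−0.26) and Cebpa (−0.25). Over all genes, beside which the marker counts stand, 23.0% rose and 35.3% fell. Of 11 tested macrophage markers 10 fell, with a median of −1.48 and a summed intensity over 13 markers of 11968 to 13035 in control cells and 4063 to 4381 with rosiglitazone; Cx3cr1 was under the floor on all arrays. Of 7 preadipocyte and stromal markers 6 fell (median −1.17, sums over 8 markers of 9834 to 9917 against 4456 to 4578). Of 5 smooth muscle markers 4 fell and 1, Des, rose by 0.21 (sums of 7946 to 8381 against 4585 to 4697). Of 7 endothelial markers 1 was bright enough to test, Tek, which fell by 1.15, and the sum was 204 to 224 against 132 to 146. Of 3 tested lymphocyte markers 1 fell, the pan-leukocyte gene Ptprc, from 303 to 135. The T and B cell genes Cd8a (0.01) and Cd79b (0.50) were not called, and Cd3e was under the floor on all arrays. The sums over 6 lymphocyte markers were 457 to 465 against 290.1 to 324, a difference that lies in Ptprc. Liver, where Ces1d is abundant, had 4 markers on the array with sums of 122 to 136 against 118 to 138, and 0 of 3 tested passed (limma). The part of these other cells in the changes of the lipolysis genes was not tested.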

How the data were processed

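Total RNA was labelled with biotin and hybridised to arrays, per the labels' protocols. The values are the authors' deposited probe set intensity on a linear scale. No source used here names the software behind them, and the arrays had been brought to like levels without identical distributions. Probe sets took gene symbols from a table of the platform's annotation: besides 64 controls, 34945 had 1 symbol, 932 several and 9160 none listed. Members were read at every probe set, other genes at the probe set with the highest mean. Controls were left out, as was the dimmest 40% by mean intensity (up to 27.3). The comparison used limma 3.58.1 under R 4.3.3 (variance trend, two-sided, no covariate; intervals are 95%). Single differences used the exact permutation test. The code of the fit was tried on simulated data with far fewer changed probe sets than were called here, and no result rests on that. The labels do not say that replicate numbers pair samples, and the main fit took no pairing. Correlations of same-numbered deviations were −0.04, −0.02 and 0.02, which cannot settle whether samples were paired. The members and gene lists were chosen with earlier results of these data known. Members are described whatever their values; from each list up to 4 called genes with the largest change were named, with others added to identify small counts or because of their role (Hilpda, Lpl, Plin4, Pnpla6, Pnpla7 and the cell type markers), chosen after their values were seen. The 3 genes nearest in profile were named for the members with the largest rise and fall. Alternatives were other filters, scalings, floors, log2(value + 1), no variance trend, array weights, a replicate block, 1 value per gene and leaving out each array.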

Additional observations from a re-analysis of the deposited data

How the results depend on the processing

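Of the 16 tested probe sets, the 15 called ones kept their direction and their call without each array in turn and under quantile normalization, median centring, log2(value + 1), array weights and no variance trend. The exception under other settings was Mgll 1431331_at, which was not called without a filter on low values (adjusted p = 0.0858) or with a floor of 64 (adjusted p = 0.0594), both with limma. The bright Pnpla2 probe set was −0.11 after quantile normalization, 0.11 after median centring and 0.26 as the mean of its probe sets, called each time. The other Pnpla2 settings left it not called, from −0.03 to 0.01 without each array. With the mean of a gene's probe sets the within-array differences of Abhd5 and G0s2 against Pnpla2 were −0.029 and −0.016. With 1 probe set per gene 7692 genes and 7 members were called, and with the mean of probe sets 8 members, where fewer features are tested. Of the other genes around lipolysis 33 to 48 were called higher and 22 to 33 lower over the alternatives; of the cAMP list 4 were called lower after median centring, without a variance trend and with the mean of probe sets. With the replicate number as a block, Pnpla2 1428143_a_at stayed at −0.01, no call of a member changed, and the exact p of each within-array difference was 0.25, the smallest that 3 pairs can give. Signal over background limits the dim probe sets of Lipe and Abhd5. All values of the Abhd5 set were under 16 and were set to 16, so the fit with no filter could show no difference. Most values of the Lipe set were also set to 16, so its limma adjusted p of 0.575 with no filter decides nothing.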
